A study of Mus musculus with 8 samples.

Results

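DNA replication genes were examined in mouse embryonic stem cells (ESCs) that lack the zinc finger transcription factor Zfp281. The list held 48 genes for the proteins that mark origins, unwind the DNA, copy it, supply nucleotides and package the new strands. Members were matched by gene symbol, and where several probe sets read a gene, the brightest on average across the arrays was taken. Of the 48 genes, 47 were measured, out of 18193 genes on the array. Chaf1a matched no probe set.

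Transcripts were measured in 8 ESC lines with 1 Affymetrix array each. The lines were Zfp281 null lines 7, 3.34 and 3.38, heterozygous lines 5 and 3.1, and wild-type lines 3, 3.2 and 3.3. In the targeted allele, made in CJ7 ESCs, a floxed neomycin resistance cassette stands in place of all Zfp281 exons. Cre recombinase can remove that cassette, and the study shows null alleles with and without it. The lines were grown out from blastocysts of matings between heterozygous mice. All lines were kept with LIF, an ESC self-renewal factor, on mouse embryonic fibroblasts, received no treatment, and may carry fibroblast RNA into the samples. Each value is an RMA log2 level, in which a difference of 1 is a 2-fold change. RMA levels of different probe sets cannot be set against each other, so each gene is compared only with itself across lines. Each replicate is an ESC line of its own, and so few lines give limited precision. The array reads bulk RNA, so a change in the share of cells of a kind and a change in RNA per cell cannot be told apart.

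DNA replication begins at origins bound by the origin recognition complex, where Cdc6 and Cdt1 load the Mcm helicase before S phase. A kinase made of Cdc7 and Dbf4, together with Cdc45 and the GINS proteins, then turns the loaded helicase into a moving fork, behind which DNA polymerases work with a sliding clamp. Mouse ESCs have a short G1 phase and spend much of their cycle in S phase, and genes of this machinery are known targets of the E2F transcription factors.

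The targeted gene was read first. Zfp281 had RMA levels of 3.64, 5.06 and 5.23 in null lines 7, 3.34 and 3.38, against 6.69 and 6.97 in the heterozygous lines (5, 3.1) and 6.88, 7.93 and 6.72 in the wild-type ones (3, 3.2, 3.3), an order kept for all genes. Its log2 difference was -2.54 (SE 0.45, adjusted p = 0.0467) in null against wild-type lines by limma, and -0.35 (SE 0.50, adjusted p = 0.997) in heterozygous against wild-type lines. All null lines lay below every other line. Heterozygous line 3.1 lay within the wild-type range, and line 5 just below it. Of 12 ESC markers, 12 were detected in 7 lines and 11 in wild-type line 3.2. Fibroblast markers were detected too, 12 to 15 of 18 in null, 14 to 18 in heterozygous and 12 to 16 in wild-type lines. Their mean level was 5.72 to 5.84 in null, 5.99 to 6.52 in heterozygous and 5.80 to 6.33 in wild-type lines.

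The promoters of 4 members are given, since Cdc45 was the member that passed the test, Rpa2 had the highest log2 difference, and Mcm5 and Mcm6 hold E2F-type motifs. Each is the 250 bases before the RefSeq start on GRCm38.p6, at chr16:18811973-18812222 on the minus strand for Cdc45, chr4:132768110-132768359 on the plus strand for Rpa2, chr8:75109259-75109508 on the plus strand for Mcm5 and chr1:128359706-128359955 on the minus strand for Mcm6. Capitals mark matches on either strand to CCAAT, the core of NF-Y sites, or to the E2F forms TTTCCCGC, TTTCGCGC, TTTGCCGC and TTTGGCGC.
Cdc45: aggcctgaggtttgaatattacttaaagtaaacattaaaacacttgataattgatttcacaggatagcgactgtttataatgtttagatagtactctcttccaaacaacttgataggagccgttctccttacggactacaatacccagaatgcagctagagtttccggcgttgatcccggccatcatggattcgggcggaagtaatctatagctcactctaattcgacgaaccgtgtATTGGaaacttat
Rpa2: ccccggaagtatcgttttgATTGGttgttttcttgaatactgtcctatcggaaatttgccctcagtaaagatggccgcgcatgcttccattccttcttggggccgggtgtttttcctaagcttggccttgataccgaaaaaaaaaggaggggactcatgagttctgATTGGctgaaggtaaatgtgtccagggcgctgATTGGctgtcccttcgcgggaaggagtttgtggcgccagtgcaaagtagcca
Mcm5: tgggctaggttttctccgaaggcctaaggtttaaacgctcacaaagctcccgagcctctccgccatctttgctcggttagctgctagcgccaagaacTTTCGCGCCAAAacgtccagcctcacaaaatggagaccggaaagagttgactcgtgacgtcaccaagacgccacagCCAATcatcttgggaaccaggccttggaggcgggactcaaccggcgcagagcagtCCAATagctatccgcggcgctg
Mcm6: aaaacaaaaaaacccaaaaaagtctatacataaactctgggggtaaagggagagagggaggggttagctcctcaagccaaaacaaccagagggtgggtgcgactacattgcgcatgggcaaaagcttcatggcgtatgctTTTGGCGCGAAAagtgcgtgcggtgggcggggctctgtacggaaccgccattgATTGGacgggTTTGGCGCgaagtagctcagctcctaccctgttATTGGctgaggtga
In Mcm5 and in the farther match of Mcm6, TTTCGCGC and TTTGGCGC overlap on opposite strands. An E2F form was found in 9 of the 40 members with a window (22.5%), and in 2.157% of 27025 genes with a window of this length. Those members were Mcm5, Mcm6, Mcm7, Orc1, Orc3, Cdc6, Gins3, Rfc3 and Pola1, and Cdc45 and Rpa2 were not among them. CCAAT was found in 24 of the 40 members (60%), against 37.49% of genes. GGGGAGGGG, a run of the G-rich kind that Zfp281 is known to bind, was found in 2 members, Orc4 and Lig1 (5%), against 6.553% of genes. A match describes the letters and was not tested as a site.

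In null against wild-type ESCs, most replication genes had higher levels, but a single member, Cdc45, passed the test over all genes. The mean was higher in null lines for 36 of 47 members, against 46.84% of all genes. The median log2 difference of the members was 0.32, while that of all genes was -0.01. The members ran between -0.28 for Orc1 and 1.38 for Rpa2, and 2 of them, Rpa2 and Pola1, lay above 1, as did 1.37% of all genes.

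By limma with Benjamini-Hochberg adjustment over all genes, 1 member rose and 0 fell, in a background of 0.693% of genes higher and 0.44% lower. At an unadjusted p under 0.05, 16 members were higher and 0 lower, against 8.67% of all genes higher and 7.71% lower, or 15.7% and 14.3% of the genes detected in every line of a genotype. In 17 members every null line lay above every wild-type line, which held for 11.1% of all and 17.2% of detected genes. In 1 member, Orc4, every null line lay below every wild-type line, which held for 11.2% of all and 15.5% of detected genes. Of the 47 members, 44 were detected in every line of a genotype, and Gins3, Pola2 and Tyms were not. Cdc45 and Gins2 were so detected through the null lines only.

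A measure of RNA quality differed between genotypes. The log2 gap between 3′ and 5′ control probe sets, averaged over Gapdh and beta-actin, which grows as RNA or cDNA gets shorter, was 2.68 to 3.71 in null, 4.49 to 4.80 in heterozygous and 4.23 to 4.86 in wild-type lines. With that gap as a covariate, 0 members passed the test, the median log2 difference was 0.09, and 29 of 47 members had a higher mean in null lines. The log2 differences of the members with the smallest p were then 0.65 for Cdc45, 0.55 for Chaf1b, 0.49 for Rfc2, 0.37 for Mcm3, 0.34 for Rpa2, 0.33 for Rfc5, 0.13 for Orc6 and 0.12 for Lig1, and all 8 were larger without the covariate. The part of RNA quality in the higher levels of the replication genes was not tested beyond this fit, because null lines and small gaps coincide.

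**Figure D1:**
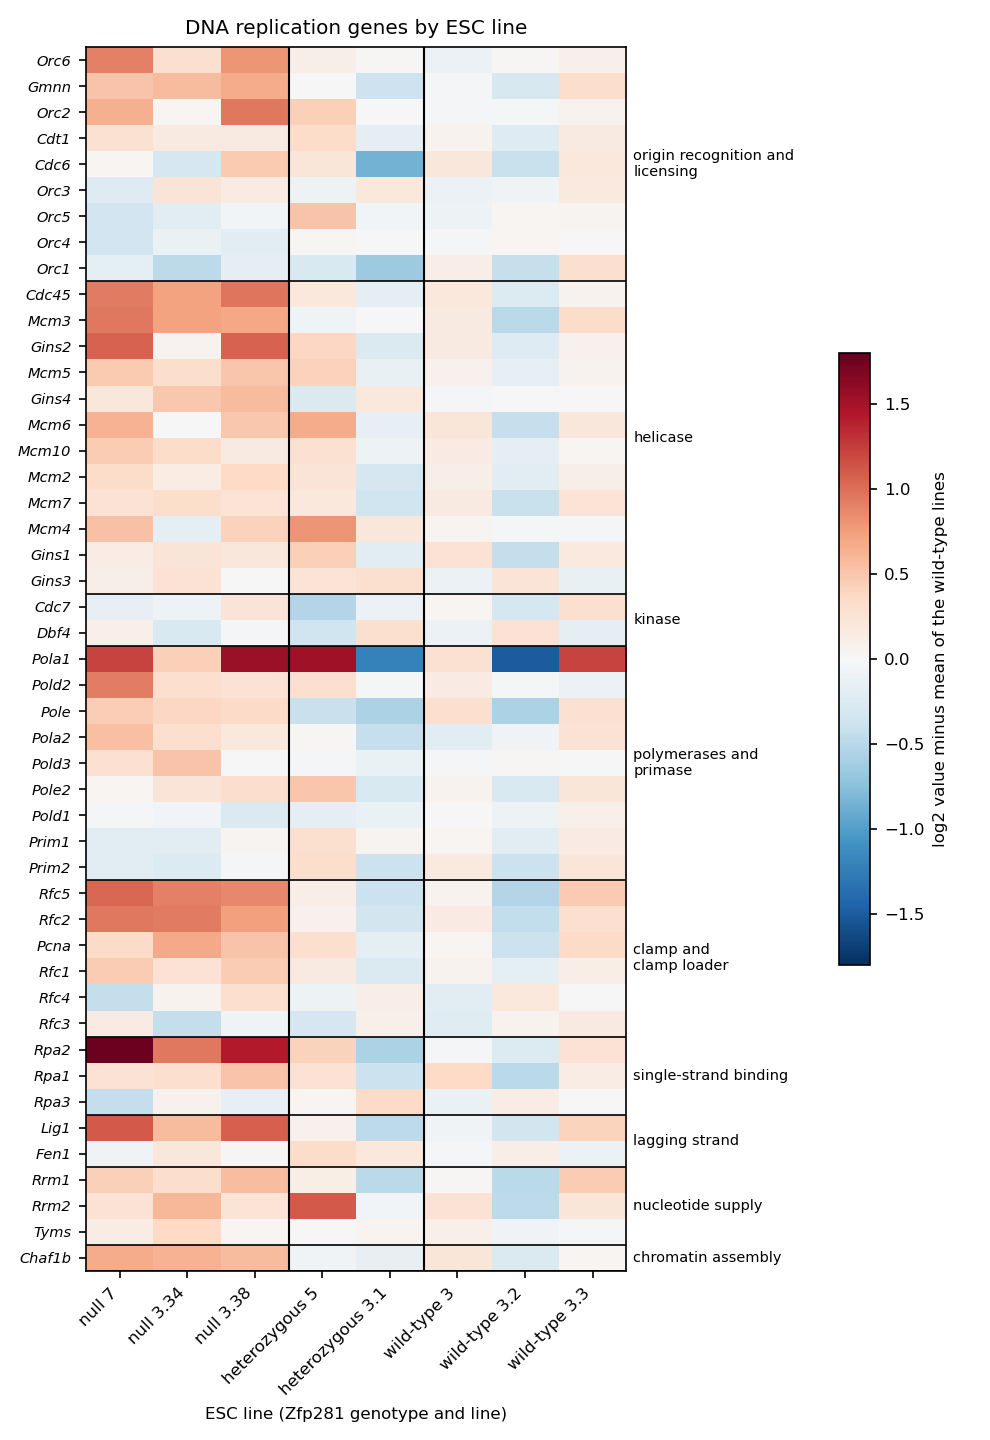
RMA log2 level of each of the 47 measured replication genes (rows, grouped by role) in the 8 ESC lines (columns, by Zfp281 genotype), as the difference from the mean of the wild-type lines. Red cells prevail in the null columns, and heterozygous line 3.1 and wild-type line 3.2 are mostly blue.

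Among the 9 genes for origin recognition and licensing, 3 were higher in null lines at an unadjusted p under 0.05 (Orc2, Orc6 and Gmnn), 0 were lower, and none passed adjustment by limma. Orc6, the smallest subunit of the origin recognition complex, had levels of 8.82, 8.20 and 8.71 in null lines, against 8.02 and 7.94 in heterozygous and 7.80, 7.93 and 8.00 in wild-type lines. Its levels were higher in each null line than in any other line, with a log2 difference of 0.66 (SE 0.17, adjusted p = 0.0912) from wild-type lines. Gmnn, which encodes geminin, the inhibitor of Cdt1, had levels of 9.37, 9.42 and 9.52 in null, 8.86 and 8.48 in heterozygous and 8.82, 8.57 and 9.18 in wild-type lines. The null lines again lay above all others, and the log2 difference from wild-type lines was 0.58 (SE 0.17, adjusted p = 0.131).

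The other origin genes differed less between genotypes. Orc1, the large ATP-binding subunit, had levels of 6.63, 6.33 and 6.62 in null lines, against 6.54 and 6.15 in heterozygous and 6.93, 6.40 and 7.09 in wild-type lines. The null and wild-type ranges overlapped, and the log2 difference was -0.28 (SE 0.20, adjusted p = 0.585). That probe set was called present in 2 of 3 null, 0 of 2 heterozygous and 0 of 3 wild-type lines. Another Orc1 probe set, called present in all 8 lines, had a log2 difference of 0.70 (SE 0.29) in the other direction, with an adjusted p of 0.348 when fitted by itself with limma. The helicase loaders Cdc6 and Cdt1 differed by 0.07 and 0.20 on the log2 scale. Orc2 differed by 0.54, Orc3 by 0.05, Orc4 by -0.22 and Orc5 by -0.19. Orc4 was the most even of these genes in wild-type lines, with 7.54, 7.60 and 7.56, against 7.22, 7.44 and 7.36 in null lines.

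All 12 helicase genes had a higher mean in null lines, 5 of them at an unadjusted p under 0.05 (Cdc45, Mcm3, Gins4, Mcm5 and Gins2). Cdc45, the subunit that joins the Mcm ring at the start of unwinding, had levels of 5.89, 5.68 and 5.92 in null lines, against 5.14 and 4.78 in heterozygous and 5.14, 4.71 and 5.01 in wild-type lines. All null lines were above all others, while the heterozygous and wild-type lines shared a range. Cdc45 rose 1.83-fold in null against wild-type lines, a log2 difference of 0.87 (SE 0.15, adjusted p = 0.0467). The call was close to the threshold, since leaving out null line 7, 3.34 or 3.38 gave an adjusted p of 0.183, 0.0559 or 0.0777, and leaving out wild-type line 3, 3.2 or 3.3 gave 0.106, 0.117 or 0.0657. The study states that null line 7 and wild-type line 3, and null line 3.38 and wild-type line 3.3, come from shared litters. In a fit of those 4 lines with the litter as a block, chosen after seeing the data, the log2 difference of Cdc45 was 0.83 (SE 0.14, adjusted p = 0.0716 by limma), and with the litter as a random block over all lines it was 0.87 (SE 0.15, adjusted p = 0.037). Its probe set was called present in 3 of 3 null, 1 of 2 heterozygous and 1 of 3 wild-type lines, and another Cdc45 probe set, called present in no line, differed by -0.01.

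The Mcm2 to Mcm7 genes encode the ring of the helicase. Mcm3 had levels of 9.44, 9.21 and 9.19 in null lines, against 8.41 and 8.49 in heterozygous and 8.66, 8.00 and 8.81 in wild-type lines. Its null lines stood above the rest, with a log2 difference of 0.79 (SE 0.20, adjusted p = 0.097) from wild-type lines. Mcm4 had levels of 9.45, 8.76 and 9.34 in null lines, against 9.71 and 9.12 in heterozygous and 8.97, 8.89 and 8.89 in wild-type lines. Here null line 3.34 fell below the wild-type lines and heterozygous line 5 was the highest line, and the log2 difference of null from wild-type lines was 0.26 (SE 0.21, adjusted p = 0.631). The other ring genes differed between null and wild-type lines by 0.27 for Mcm2 and Mcm7, 0.37 for Mcm6 and 0.43 for Mcm5.

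Of the GINS genes, whose proteins bind Cdc45 and the ring, Gins2 had levels of 7.94, 6.93 and 7.94 in null lines, against 7.25 and 6.62 in heterozygous and 7.03, 6.65 and 6.94 in wild-type lines. Lines 7 and 3.38 were the highest, whereas null line 3.34 lay within the wild-type range, and the log2 difference was 0.73 (SE 0.29, adjusted p = 0.254). Its probe set was called present in 2 of 3 null lines and in no other line. The mean level on it in null lines is therefore given as at least 1.66-fold higher than in wild-type lines. This bound is given for some probe sets called present in no line of the lower genotype. It takes in each such line the measured level or the lowest level of any present probe set, whichever is higher. The measured level was the higher each time, so the bound is the measured fold difference and leaves out its standard error. On another Gins2 probe set, called present in each null line and in no other, every null line lay above all other lines. Its log2 difference of null from wild-type lines was 1.30 (SE 0.26), with an adjusted p of 0.0681 when fitted by itself with limma. Gins3 had levels of 5.65, 5.80 and 5.55 in null lines, against 5.78 and 5.83 in heterozygous and 5.44, 5.78 and 5.41 in wild-type lines. The genotypes overlapped, with a log2 difference of 0.12 (SE 0.13, adjusted p = 0.75), on a probe set called present in 0 null, 1 heterozygous and 1 wild-type line. Gins1 and Gins4 differed by 0.19 and 0.42, and Mcm10, a scaffold that binds the active helicase, by 0.32.

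The kinase genes differed between null and wild-type lines by less than the spread between lines. Cdc7, the catalytic subunit, had levels of 6.36, 6.42 and 6.74 in null lines, against 5.98 and 6.40 in heterozygous and 6.54, 6.19 and 6.79 in wild-type lines. Dbf4, its activator, had levels of 9.47, 9.10 and 9.33 in null lines, against 9.01 and 9.66 in heterozygous and 9.26, 9.63 and 9.21 in wild-type lines. Null and wild-type ranges overlapped for both genes. The log2 difference was 0.00 (SE 0.19, adjusted p = 0.998) for Cdc7 and -0.07 (SE 0.20, adjusted p = 0.923) for Dbf4.

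**Figure D2:**
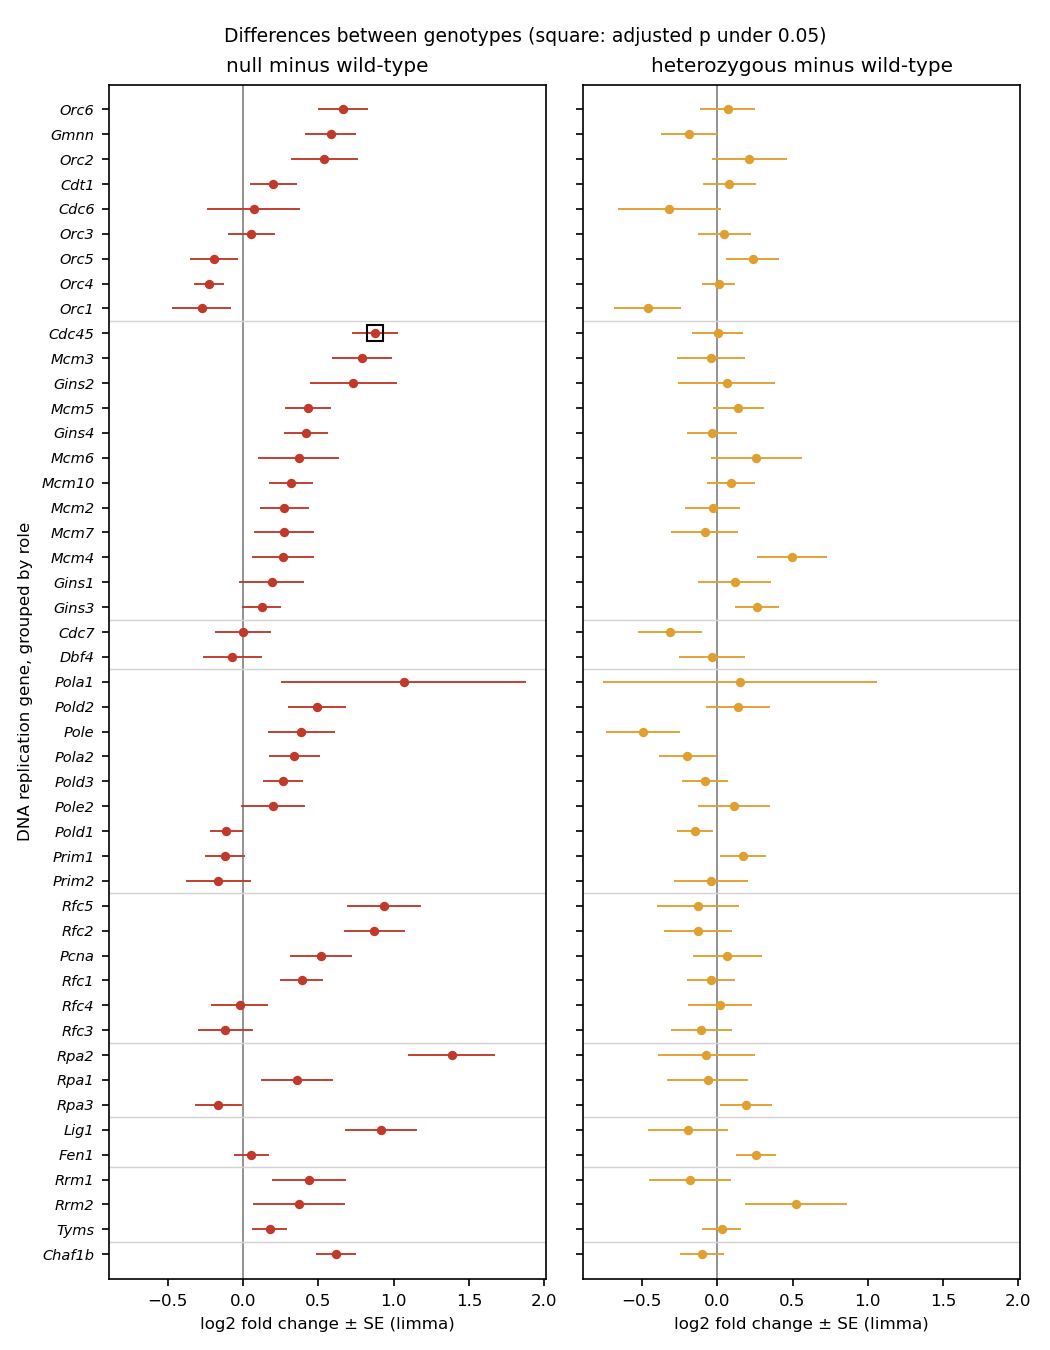
Log2 difference of each measured replication gene with its limma standard error, for null minus wild-type (left) and heterozygous minus wild-type lines (right). The square marks Cdc45, the member with an adjusted p under 0.05, and the members lie mostly right of 0 in the left panel and around 0 in the right panel.

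The 9 polymerase and primase genes had a median log2 difference of 0.27 between null and wild-type lines, and 1 of them, Pold2, was higher at an unadjusted p under 0.05. Pola1, the catalytic subunit of the polymerase that makes primers with primase, varied most. It had levels of 8.00, 7.21 and 8.33 in null lines, against 8.31 and 5.56 in heterozygous and 7.06, 5.28 and 8.00 in wild-type lines. Heterozygous line 3.1 and wild-type line 3.2 stood far below the other 6 lines, and the log2 difference of null from wild-type lines, 1.07 (SE 0.81, adjusted p = 0.616), was 0.32 without wild-type line 3.2. Pola1 lies on the X chromosome.

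Pole, the catalytic subunit of the leading strand polymerase, had levels of 8.01, 7.95 and 7.91 in null lines, against 7.16 and 6.99 in heterozygous and 7.87, 6.99 and 7.84 in wild-type lines. Both heterozygous lines and wild-type line 3.2 were low, and the log2 difference of null from wild-type lines was 0.39 (SE 0.22, adjusted p = 0.462). Prim2, a primase subunit, had levels of 7.73, 7.68 and 7.89 in null lines, against 8.24 and 7.54 in heterozygous and 8.10, 7.54 and 8.16 in wild-type lines. Its null lines lay inside the wild-type range, with a log2 difference of -0.16 (SE 0.22, adjusted p = 0.815). The remaining subunits differed by 0.49 for Pold2, 0.34 for Pola2, 0.27 for Pold3, 0.20 for Pole2, -0.11 for Pold1 and -0.12 for Prim1. The probe set of Pola2 was called present in 2 null lines and that of Pold3 in 1, and neither in any heterozygous or wild-type line.

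Of the 6 genes for the sliding clamp and its loader, 4 were higher in null lines at an unadjusted p under 0.05 (Pcna, Rfc1, Rfc2 and Rfc5). Rfc5, a small loader subunit, had levels of 8.23, 8.10 and 8.06 in null lines, against 7.32 and 6.81 in heterozygous and 7.26, 6.66 and 7.66 in wild-type lines. Rfc2, another small subunit, had levels of 7.98, 7.96 and 7.76 in null lines, against 7.11 and 6.70 in heterozygous and 7.18, 6.59 and 7.33 in wild-type lines. Both genes were higher in each null line than in any other line. The log2 difference between null and wild-type lines was 0.93 (SE 0.24, adjusted p = 0.101) for Rfc5 and 0.87 (SE 0.20, adjusted p = 0.0794) for Rfc2. The Rfc2 probe set was called present in 3 of 3 null, 0 of 2 heterozygous and 0 of 3 wild-type lines. On this probe set the measured means put the null level at least 1.83-fold higher than the wild-type one. That bound leaves out the standard error and does not hold for the further probe sets of the gene. Those further Rfc2 probe sets, called present in each null line and in most others, had log2 differences of 0.42 and 0.43, less than the 0.87 of the brightest one.

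Pcna, the clamp itself, had levels of 11.18, 11.52 and 11.34 in null lines, against 11.13 and 10.67 in heterozygous and 10.87, 10.45 and 11.18 in wild-type lines. The lowest null and the highest wild-type line nearly met, and the log2 difference was 0.52 (SE 0.20, adjusted p = 0.255). Rfc3, also a loader subunit, had levels of 4.57, 4.0 and 4.34 in null lines, against 4.12 and 4.51 in heterozygous and 4.20, 4.48 and 4.58 in wild-type lines. The genotypes overlapped, with a log2 difference of -0.12 (SE 0.18, adjusted p = 0.847). On another Rfc3 probe set, called present in 1 null line and in no other line, every null line lay above all other lines. Its log2 difference of null from wild-type lines was 0.75 (SE 0.16), with an adjusted p of 0.0782 when fitted by itself with limma. Rfc1, the large subunit, differed by 0.39 and Rfc4 by -0.02.

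Replication protein A coats single-stranded DNA, and of its 3 subunits Rpa2 was higher in null lines at an unadjusted p under 0.05. Rpa2, the middle subunit, had levels of 8.64, 7.83 and 8.31 in null lines, against 7.30 and 6.31 in heterozygous and 6.86, 6.63 and 7.14 in wild-type lines. Every null line lay above every other line, with a 2.61-fold higher level in null than in wild-type lines and a log2 difference of 1.38 (SE 0.29), which missed the threshold at an adjusted p of 0.0638. The adjusted p was 0.0372 among detected genes and 0.0495 with only null and wild-type lines fitted. It was 0.0471 by limma in the litter pairs (log2 difference 1.47) and 0.0523 with the litter as a random block. The fit of the pairs, chosen after seeing the data, leaves 1 residual degree of freedom and called too many genes in simulated data. With the 3′ to 5′ gap as a covariate the log2 difference was 0.34. Rpa3, the small subunit, had levels of 6.93, 7.43 and 7.20 in null lines, against 7.38 and 7.70 in heterozygous and 7.23, 7.48 and 7.35 in wild-type lines. Its null and wild-type lines overlapped, with a log2 difference of -0.16 (SE 0.16, adjusted p = 0.709), and Rpa1, the large subunit, differed by 0.36.

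Lagging strand maturation was represented by Lig1, the ligase that seals Okazaki fragments, and Fen1, the nuclease that trims them. Lig1 had levels of 9.43, 8.90 and 9.39 in null lines, against 8.40 and 7.86 in heterozygous and 8.25, 7.99 and 8.73 in wild-type lines. Fen1 had levels of 10.78, 11.05 and 10.87 in null lines, against 11.17 and 11.03 in heterozygous and 10.83, 10.97 and 10.74 in wild-type lines. Lig1 was higher in each null line than in any other line, whereas the Fen1 ranges overlapped. The log2 difference was 0.92 (SE 0.24, adjusted p = 0.100) for Lig1 and 0.05 (SE 0.12, adjusted p = 0.899) for Fen1. A further Fen1 probe set, also called present in all 8 lines, read 6.35, 6.20 and 6.45 in null lines, against 5.80 and 5.13 in heterozygous and 5.51, 5.44 and 5.92 in wild-type lines. On that probe set every null line lay above all others, with a log2 difference of 0.71 (SE 0.19) and an adjusted p of 0.141 when fitted by itself with limma.

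Rrm1, the large subunit of ribonucleotide reductase, which makes deoxynucleotides, had levels of 8.09, 7.96 and 8.21 in null lines, against 7.77 and 7.17 in heterozygous and 7.67, 7.16 and 8.11 in wild-type lines. Wild-type line 3.3 lay among the null lines, and the log2 difference was 0.43 (SE 0.25, adjusted p = 0.458). Rrm2, the small subunit, differed by 0.37. Tyms, thymidylate synthase, had levels of 3.38, 3.61 and 3.28 in null lines, against 3.25 and 3.30 in heterozygous and 3.34, 3.18 and 3.21 in wild-type lines, on a probe set called present in no line. The genotypes overlapped, with a log2 difference of 0.18 (SE 0.12, adjusted p = 0.538). A brighter probe set that names both Tyms and its pseudogene was not used.

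Chaf1b, a subunit of the factor that places histones on new DNA, had levels of 6.20, 6.16 and 6.10 in null lines, against 5.48 and 5.39 in heterozygous and 5.76, 5.28 and 5.57 in wild-type lines. The null lines lay close together and above all others. Its log2 difference from wild-type lines was 0.62 (SE 0.13, adjusted p = 0.0668).

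**Figure D3:**
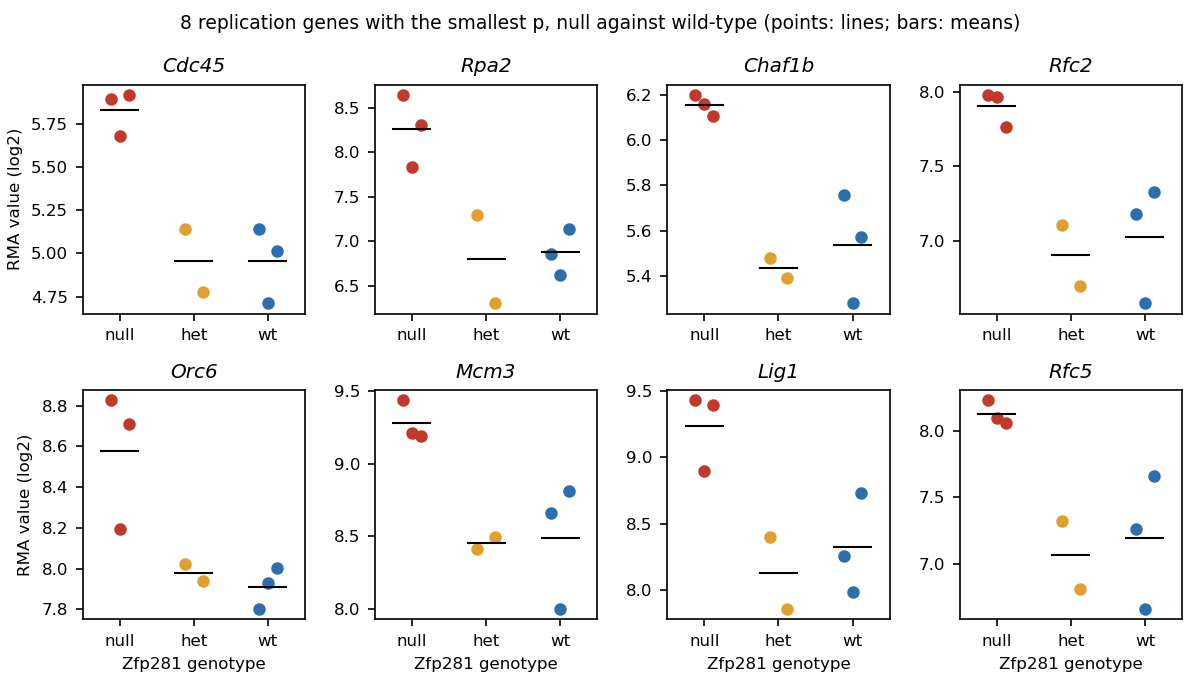
RMA log2 levels of the 8 replication genes with the smallest p for null against wild-type lines, with 1 point for each ESC line and a bar at each genotype's mean (the vertical axes do not start at 0 and differ between panels). In each of the 8 panels every null line lies above every heterozygous and wild-type line.

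In heterozygous against wild-type ESCs the replication genes had no common direction. Of 47 members, 24 had a higher mean in heterozygous than in wild-type lines, against 51.25% of all genes, and the median log2 difference was 0.00. By limma 0 members rose or fell, in a background of 0% of all genes in either direction. At an unadjusted p under 0.05, 0 members were higher or lower, against 1.67% of all genes higher and 2.18% lower. Of 7976 detected genes, 151 were higher and 280 lower at that p by limma. Both heterozygous lines lay above every wild-type line in 3 members (Mcm4, Gins3 and Fen1), as in 8.44% of all genes, and below every one in 2 members (Pold1 and Pold3), as in 8.83% of all genes.

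The members with the smallest p in heterozygous against wild-type lines were Mcm4, Orc1, Pole and Fen1. Their log2 differences were 0.50 (SE 0.23) for Mcm4, -0.46 (SE 0.22) for Orc1, -0.49 (SE 0.25) for Pole and 0.26 (SE 0.13) for Fen1, each with an adjusted p of 0.997 by limma. Cdc45 and Rpa2 differed by 0.00 (SE 0.17) and -0.07 (SE 0.32) between heterozygous and wild-type lines. The lines of this genotype differed from each other, so that the median over the members was 0.18 with line 5 alone and -0.14 with line 3.1 alone.

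Between null and heterozygous lines the members were again mostly higher in null lines, in 35 of 47, with a median log2 difference of 0.31. These values share the null lines with the comparison against wild-type lines. By limma 0 members passed adjustment, as did 0% of all genes in either direction. At an unadjusted p under 0.05, 14 members were higher and 1 lower (Orc5), against 7.65% and 6.16% of all genes. Among the 7976 detected genes, 1169 were higher and 861 lower at that p by limma. In 17 members every null line lay above both heterozygous lines, and in 3 (Orc4, Orc5 and Prim1) below both, against 13.3% and 14.5% of all genes. The same held for 1639 and 1423 of the 7976 detected genes.

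The smallest p values of null against heterozygous lines belonged to Cdc45, Chaf1b, Rpa2 and Rfc2. The log2 difference was 0.87 (SE 0.17, adjusted p = 0.0774) for Cdc45, 0.72 (SE 0.15, adjusted p = 0.0829) for Chaf1b, 1.46 (SE 0.32, adjusted p = 0.0946) for Rpa2 and 1.00 (SE 0.23, adjusted p = 0.102) for Rfc2. Pole, which was low in both heterozygous lines, differed by 0.88 (SE 0.25, adjusted p = 0.15). Without wild-type line 3.2 in the fit, which changes only the estimate of the spread, 6 members passed (Pole, Mcm3, Rfc2, Chaf1b, Cdc45 and Rfc5), all higher in null lines, as did 1.42% of all genes higher and 0.484% lower.

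The ESC lines within a genotype were not alike in these genes. The median of the members, relative to the wild-type mean of each gene, was 0.28, 0.26 and 0.32 in the null lines. It was 0.18 in heterozygous line 5 and -0.14 in line 3.1, against 0.06, -0.23 and 0.15 in the wild-type lines. Wild-type line 3.2 was the lowest wild-type line in 32 of 47 members, against 38.1% of detected genes. Heterozygous line 3.1 was below line 5 in 36 of 47 members, against 54.3% of detected genes. Those lines also had the smallest shares of probe sets called present, 28.4% in heterozygous line 3.1 and 30.4% in wild-type line 3.2, while the other lines had 32.3% to 35.3%. Without wild-type line 3.2 the median log2 difference of null from wild-type lines was 0.17, with 36 of 47 members still higher on average, and 0 passed the test.

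**Figure D4:**
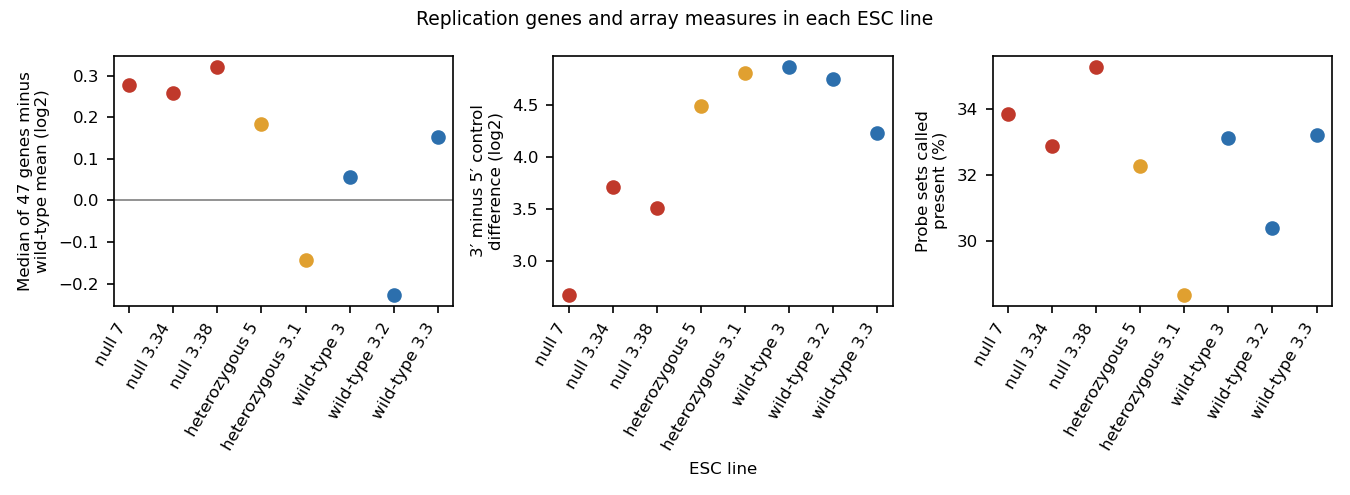
Values of the 8 ESC lines, with a colour for each Zfp281 genotype: the median over 47 replication genes of the level minus the wild-type mean (left, log2), the averaged 3′ to 5′ gap of Gapdh and beta-actin control probes (middle, log2) and the share of probe sets called present (right, %). The vertical axes do not start at 0. The null lines are highest at left and lowest in the middle panel, and heterozygous line 3.1 and wild-type line 3.2 are lowest at left and at right.

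Where a gene had a further detected probe set, its log2 difference there was more often higher than lower, among members as among all genes. Of 20 such members, 14 (70.0%) had a higher log2 difference of null from wild-type lines on the next brightest probe set, as had 58.4% of 2714 genes. The median over those members was 0.30 on the brightest and 0.62 on the next brightest probe set, while over all such genes it was -0.08 and -0.02. Mcm6 had a log2 difference of 0.37 and 1.30, Mcm3 of 0.79 and 1.60, Mcm2 of 0.27 and 1.19, Cdt1 of 0.20 and 1.09, and Rpa1 of 0.36 and 1.05. In the opposite direction, Mcm10 had 0.32 and -0.35 and Orc3 0.05 and -0.33.

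The further probe set of Mcm6 read 9.83, 9.35 and 9.68 in null lines, against 8.16 and 7.78 in heterozygous and 8.41, 7.57 and 8.97 in wild-type lines. On that probe set each null line was above all other lines, which was not so on the brightest, where the levels were 9.21, 8.58 and 9.07 in null lines, against 9.25 and 8.43 in heterozygous and 8.81, 8.16 and 8.78 in wild-type lines. Each probe set was also fitted by itself, a choice made after seeing the data. Of the 74 detected probe sets of the members, 32 were then higher and 2 lower in null lines than in wild-type at an unadjusted p under 0.05, 11 had a log2 difference above 1, and 1 passed adjustment by limma, with 0 lower. Of 13684 detected probe sets of any gene, 16.1% were higher and 14.6% lower at that unadjusted p, 3.41% had a log2 difference above 1, and 0.87% were higher and 0.694% lower after adjustment. The probe set that passed was a further one of Mcm3, with a log2 difference of 1.96 (SE 0.32, adjusted p = 0.04995), called present in 3 of 3 null, 0 of 2 heterozygous and 3 of 3 wild-type lines. The probe set of Cdc45 had an adjusted p of 0.0529 in this fit. Which stretch of the transcript each probe set reads was not known here, and its part in these differences was not tested.

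**Figure D5:**
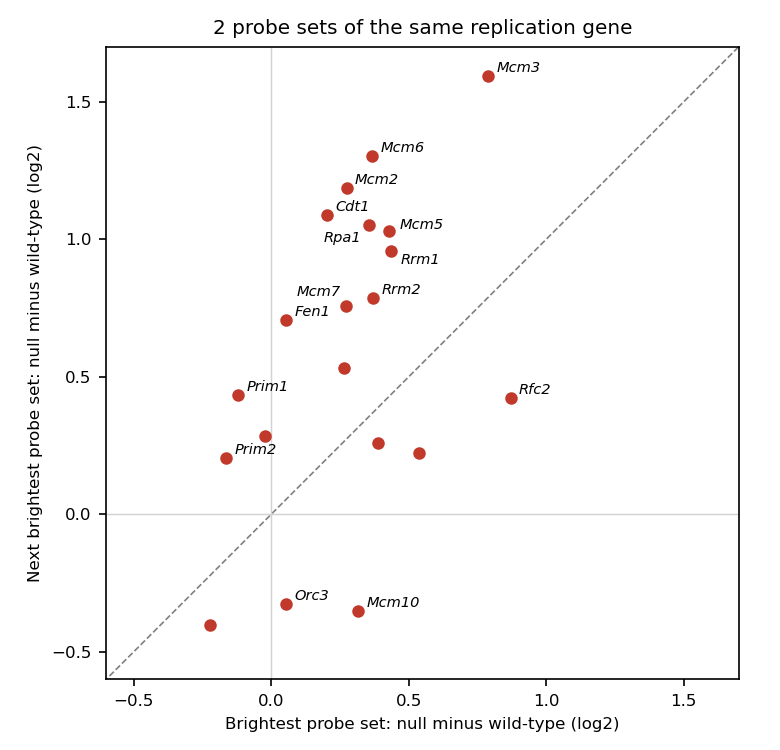
Log2 difference of null minus wild-type lines on the brightest (horizontal) and the next brightest probe set (vertical) of the 20 replication genes with a further detected probe set, 1 point for each gene, with equality dashed. Of the 20 genes, 14 lie above the dashed line.

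Genes outside the list that act in the same process were counted by group. As background for each count at an unadjusted p under 0.05, 15.7% of detected genes were higher and 14.3% lower by limma. Of 26 other replication factors, 5 were higher and 0 lower in null lines at an unadjusted p under 0.05, none passed adjustment by limma, and the median log2 difference was 0.06. The smallest p values were those of Chtf18, part of an alternative clamp loader, with 1.57 (SE 0.30, adjusted p = 0.0528), and Ticrr, which helps to start the fork, with 0.55 (SE 0.13, adjusted p = 0.079). The Chtf18 probe set was called present in each null line and in no other. Its measured means put the null level at least 2.97-fold higher than the wild-type one, a bound that leaves out the standard error. The Ticrr probe set was called present in no line. Of 8 other nucleotide supply genes 1 was higher, Dut, which removes dUTP, with 0.89 (SE 0.31, adjusted p = 0.187), and Tk1, a thymidine kinase, followed with 0.58 (SE 0.35, adjusted p = 0.49) on a probe set called present in 1 null, 1 heterozygous and 0 wild-type lines. Of 7 histone supply genes 1 was higher and 2 lower, among them the histone binding proteins Rbbp7 with -0.51 (SE 0.14, adjusted p = 0.107) and Nasp with 0.75 (SE 0.26, adjusted p = 0.195).

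Regulators of S phase and cell type markers were counted in the same way, beside the same background of 15.7% of detected genes higher and 14.3% lower. Of 13 E2F and Rb family genes, 0 were higher or lower at an unadjusted p under 0.05 by limma, with a median log2 difference of 0.03, and the nearest were E2f7 with -0.63 (SE 0.33, adjusted p = 0.402) and E2f1 with 0.39 (SE 0.20, adjusted p = 0.412). Of 9 S-phase cyclins and kinases, 1 was higher, the mitotic kinase Cdk1 with 0.70 (SE 0.16, adjusted p = 0.0786), and 1 lower, its inhibitor Wee1 with -0.42 (SE 0.10, adjusted p = 0.0858). Of 10 replication checkpoint genes, 0 were higher or lower, the nearest being Atrip with 0.18 (SE 0.13, adjusted p = 0.578), whose probe set was called present in no line, and Chek2 with -0.25 (SE 0.22, adjusted p = 0.675). The 12 ESC markers had a median log2 difference of 0.59, with 7 higher and 0 lower at an unadjusted p under 0.05. Of these markers, 9 had a higher and 3 a lower mean in null lines, and the lowest log2 difference was -2.62. The 18 fibroblast markers had a median of -0.44, with 0 higher and 2 lower at that unadjusted p. Their part in the levels of the replication genes was not tested.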

How the data were processed

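Total RNA of 8 ESC lines was labelled and hybridised to 1 Affymetrix array each. The authors deposited log2 values made with RMA for all 45101 probe sets, which were used as the main values. For each array the authors also deposited a table with linear signal intensity, a detection call and its detection p-value for each probe set. These gave the calls of presence and an alternative set of values. No source used here gives the version of the authors' tools or the stretch of transcript that a probe set covers.

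Probe sets that name 1 gene (34945) were kept, those that name several (932) or none (9160) and 64 controls were left out, and the brightest probe set by mean level over 8 arrays stood for its gene. The difference between genotypes was fitted with limma 3.58.1 (R 4.3.3; functions lmFit and eBayes; 1 mean for each genotype; all arrays), and p-values were adjusted by Benjamini-Hochberg over 18193 genes and called under 0.05. The fit was tested on simulated data. A gene was detected if any of its probe sets was called present in every line of a genotype. Detection calls limit the precision of dim probe sets. Promoters came from RefSeq. The labels give no batch and no pairing of lines. The study names 2 litter pairs (null 7 with wild-type 3, null 3.38 with wild-type 3.3), whose deviations from their genotype means correlated at 0.0934 and -0.00252 over 7976 detected genes, and the litter was added as a block, fixed or random (duplicateCorrelation, consensus correlation 0.0944). Nothing says that a line was grown more than once, so p-values rest on the spread between lines, which also holds differences of culture, RNA and array.

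The members and lists were chosen with earlier results of these data known. Values in each line are given for members past the test, the highest and lowest log2 difference of each role, the smallest p values (8 for null against wild-type lines, 4 for each of the other comparisons) and any member with probe sets of opposite sign that both had an unadjusted p under 0.05 (0 members), and, chosen after their values were seen, Gmnn, Gins2, Pcna, Orc4 and the further probe set of Mcm6. For genes outside the list, the 2 smallest p values of a group are given. The alternatives were the average of a gene's probe sets, no _x_at or _s_at probe sets, detected genes only, renewed quantile normalization, signal values, another variance model, fewer samples in the fit, the 3′ minus 5′ covariate and each line left out.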

Additional observations from a re-analysis of the deposited data

How the results depend on the processing

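In null against wild-type lines 1 member passed the test, and 0 did with the probe sets of a gene averaged, with signal values, with the 3′ minus 5′ covariate or, chosen after seeing the data, without the arrays with the fewest present calls, while 2 did among detected genes or with only both genotypes fitted. Among detected genes 1 of those 2 was Cdc45, which counts as detected through the null lines only, so its pass there is no separate support. With 1 line left out, 0 to 2 passed. The median log2 difference was 0.0943 with the covariate. In heterozygous against wild-type lines 13 to 35 members had a higher mean with 1 line left out, and in null against heterozygous lines 0 to 6 passed. For these alternatives, changes of sign are listed only for the members named by the fixed rule, not for the other members. Under the covariate, members outside that set turned sign too. Within it, the log2 difference of null from wild-type lines turned sign under the covariate for Mcm4 (-0.30), Pola1 (-0.87), Rrm1 (-0.10), Rpa3 (0.29) and Cdc7 (0.0410). Under averaging it turned sign for Orc1 (0.21), Cdc7 (0.11) and Rfc3 (0.32). Under signal values it did so for Orc1 (0.11), Cdc7 (0.10) and Rfc3 (0.12), and under renewed quantile normalization for Fen1 (-0.0372). Without the 2 arrays with the fewest present calls Dbf4 was at 0.0607. With 1 line left out the log2 difference ran between -0.16 and 0.14 for Cdc7, -0.16 and 0.0607 for Dbf4, -0.25 and 0.0345 for Rfc3, and -0.0231 and 0.12 for Fen1. The cause of these changes was not tested. With the litter as a replicate block, chosen after seeing the data, 1 member passed in null against wild-type lines, which was Rpa2 in the 2 litter pairs (Cdc45 lost its call) and Cdc45 over all lines. In the pairs the median log2 difference was 0.173, and 28 members were higher in both pairs. Over all measured members, Dbf4 (0.16), Rfc3 (0.0648), Rfc4 (0.0265), Gins1 (-0.0465) and Orc3 (-0.0693) turned sign there. Those pairs leave 1 residual degree of freedom, at which the fit called too many genes in simulated data. The block over all lines changed no call or sign among the results recomputed. Dim probe sets such as those of Cdc45 and Tyms lie near the detection limit, and 3 lines or fewer stand for each genotype.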
